A study of Homo sapiens with 6 samples.

Results

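Keratins form the cytoplasmic intermediate filaments of epithelial cells. Each filament is built from pairs of a type II keratin (KRT5, KRT7 and KRT8 here) and a type I keratin (KRT14, KRT15, KRT17, KRT18, KRT19 and KRT20), and the pair that is used differs between cell layers. In the prostate gland KRT8 and KRT18 mark the secretory luminal cells, whereas KRT5 and KRT14 mark the basal cells, which also carry TP63, the p53 family transcription factor of stratified epithelia. Here 5 luminal genes (KRT8, KRT18, KRT19, KRT7 and KRT20) and 5 basal genes (KRT5, KRT14, KRT15, KRT17 and TP63) were followed, taken by gene name from the 58735 genes of the deposited tables, and all 10 were found there. The rule uses gene names alone.

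RNAseq was done on C4-2B, a human prostate cancer line that grows under castrate androgen levels, and on RC4-2B, a subclone of it made resistant to the taxane cabazitaxel (CBZ). For the selection, C4-2B cells went through cycles of 72 h in CBZ and recovery, with the dose rising from 0.1 nM to 20 nM over 4 months. The labels give medium with 10% fetal bovine serum for both lines, the study's methods name CSS beside it for the RNA cultures, no drug is named for the sequenced cultures, and each line has 3 biological replicates. RC4-2B is a single subclone, so selection by the drug and differences between clones cannot be told apart. The 6 libraries held 15707134 to 18052517 counts on genes, and 3 counts, taken as the floor of detection, equal 0.170 to 0.188 CPM (counts-per-million, with library sizes scaled by edgeR's TMM method). RC4-2B replicate 2 stood apart, since its log2 differences from the other RC4-2B libraries across genes had SDs of 0.63 and 0.55, against 0.24 between those.

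C4-2B and RC4-2B cells carried KRT8 and KRT18 at a high level, KRT19 at a low level and almost no read of the other 7 genes. C4-2B replicates 1 to 3 held 6189, 5912 and 6168 raw counts of KRT8, and RC4-2B replicates 1 to 3 held 5733, 5122 and 6257. For KRT18 they held 4370, 4263 and 4246 (C4-2B) and 3548, 4429 and 4177 (RC4-2B). For both genes the RC4-2B counts were more spread and lay on both sides of the C4-2B counts. KRT8 ran from 5122 to 6257 in RC4-2B against 5912 to 6189 in C4-2B. KRT18 ran from 3548 to 4429 against 4246 to 4370. KRT5, the type II keratin of basal cells, and TP63 had 0 counts in all 6 libraries. A count of 0 allows up to 3 counts per library, which is 0.0353 to 0.0391 FPKM (fragments-per-kilobase-per-million, as deposited) for KRT5 and 0.0203 to 0.0225 FPKM for TP63. This limit covers counting error alone. KRT5 and TP63 were therefore not detectable at this depth in either line.

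**Figure D1:**
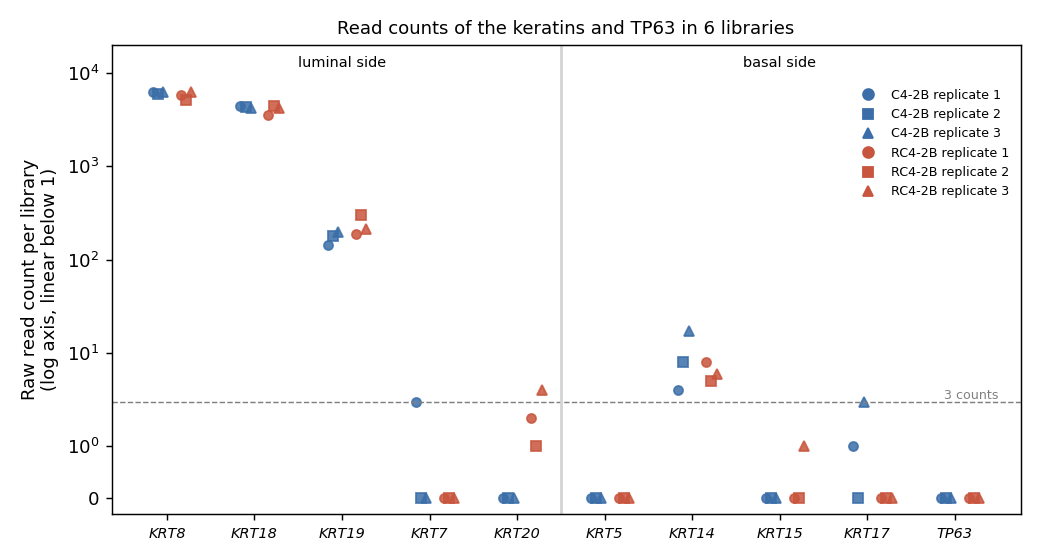
Raw read counts (vertical axis, logarithmic above 1 and linear below) of the 10 genes in each library, with C4-2B in blue, RC4-2B in red and 1 marker shape per replicate number. KRT8 and KRT18 lie between 3548 and 6257 counts in all 6 libraries and KRT19 between 145 and 297, while on the basal side KRT14 alone rises above the dashed line at 3 counts.

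The promoters of the basal genes without a read are given here because p63, the product of TP63, is known to act on keratin genes of basal cells through p53 family sites. RefSeq promoter windows (GRCh38.p14) were at hand for 4 of the 10 genes. The following lines give the 250 bases before the start of KRT5, on the minus strand at chr12:52520395-52520644, and before that of TP63, on the plus strand at chr3:189631139-189631388. Capitals mark the p53 family half-site, a motif of 10 bases with the core CWWG (W is A or T), which reads alike on both strands.
KRT5: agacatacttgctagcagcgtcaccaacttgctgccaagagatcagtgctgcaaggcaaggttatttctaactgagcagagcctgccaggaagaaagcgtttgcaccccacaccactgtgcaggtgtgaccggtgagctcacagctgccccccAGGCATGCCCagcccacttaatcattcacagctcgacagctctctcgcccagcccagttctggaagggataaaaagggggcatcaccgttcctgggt
TP63: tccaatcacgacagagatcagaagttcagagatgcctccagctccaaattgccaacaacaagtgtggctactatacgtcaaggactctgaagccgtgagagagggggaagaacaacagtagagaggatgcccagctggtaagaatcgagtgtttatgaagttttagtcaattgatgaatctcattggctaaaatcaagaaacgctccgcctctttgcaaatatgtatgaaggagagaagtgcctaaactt
The KRT5 window held 1 half-site, AGGCATGCCC, which begins 97 bases before the start. The TP63 window, at the outermost start of the gene, held 0, and starts further inside the gene were not searched. KRT20 and KRT8 held 1 each, but the KRT8 window of RefSeq lies at a start 21393 bases from that of the canonical KRT8 transcript and is not shown. Of 35116 promoter windows of this length, 5.57% held a half-site. The TATA-like letters ATAAAA, on either strand, were found in KRT5 and KRT20 and in 14.8% of all windows. Such matches describe the letters of the window and do not show binding.

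KRT8 (ENSG00000170421) and KRT18 (ENSG00000111057) form the first filament pair of simple epithelia and are the usual luminal keratins of prostate cells. KRT8 lies on the minus strand of chromosome 12 from 52897187 to 52949954 in GRCh38, and KRT18 on the plus strand beside it, from 52948871 to 52952901. KRT8 stood at 352 ± 17.3 CPM (SD, n = 3) in C4-2B and 339 ± 41.3 CPM (SD, n = 3) in RC4-2B. The quasi-likelihood test of edgeR, run over 15054 genes, put its log2 fold change (RC4-2B over C4-2B) at -0.052 ± 0.12 (standard error), with a 95% interval of -0.32 to 0.22 and an adjusted p of 0.80. KRT18 stood at 248 ± 11.1 CPM (SD, n = 3) in C4-2B and 240 ± 16 CPM (SD, n = 3) in RC4-2B. The same edgeR test put KRT18 at -0.047 ± 0.10 (standard error), with a 95% interval of -0.28 to 0.18 and an adjusted p of 0.79. The groups overlapped for both genes. The intervals leave room for a change to between 0.802 and 1.16 times the C4-2B level for KRT8 and between 0.825 and 1.14 times for KRT18. The sign was not fixed for either gene, since KRT8 stood at 0.046 without RC4-2B replicate 2 and KRT18 at 0.0095 without RC4-2B replicate 1.

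**Figure D2:**
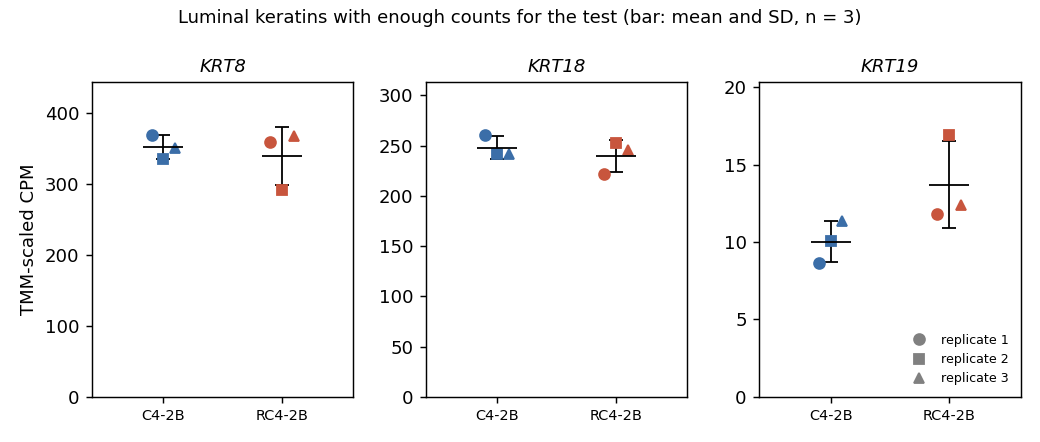
TMM-scaled CPM (vertical axes start at 0) of KRT8, KRT18 and KRT19 in each library, with the mean and SD of 3 libraries per line as black bars. For KRT8 and KRT18 the points of both lines overlap, and for KRT19 the 3 RC4-2B points, between 11.8 and 16.9 CPM, lie above the 3 C4-2B points, between 8.65 and 11.3 CPM.

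The balance within the pair was also compared, as type I and type II keratins are built into filaments in equal parts. Divided by KRT18 counts, KRT8 counts gave 1.42, 1.39 and 1.45 for C4-2B replicates 1 to 3, and 1.62, 1.16 and 1.5 for RC4-2B replicates 1 to 3. The ratio was nearly the same in the C4-2B libraries, while RC4-2B replicate 1 held the highest and RC4-2B replicate 2 the lowest value. The mean ratio was 1.42 ± 0.033 (SD, n = 3) in C4-2B and 1.42 ± 0.24 (SD, n = 3) in RC4-2B. An exact two-sided permutation test of the log2 ratio gave p = 1, where 3 libraries against 3 cannot go below 0.1.

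Which of the pair was the more abundant transcript depended on the gene length. The deposited FPKM values put KRT18 above KRT8, at 69.0 ± 3.03 against 45.8 ± 2.34 FPKM in C4-2B and 68.0 ± 5.93 against 44.9 ± 4.55 FPKM in RC4-2B (SD, n = 3). The deposited table divides KRT8 by 6881 bases, which equals the union of all its exons in GENCODE release 44, and KRT18 by 3218 bases. Their canonical transcripts have 1784 and 1413 bases. Divided by these lengths, the same counts put KRT8 at 177 ± 9.02 and KRT18 at 157 ± 6.90 FPKM in C4-2B, and at 173 ± 17.6 and 155 ± 13.5 in RC4-2B (SD, n = 3). On this scale KRT8 was above KRT18 in 5 of 6 libraries, the exception being RC4-2B replicate 2, whereas on the deposited scale it was below KRT18 in 6 of 6. The order of KRT8 and KRT18 was thus set by the length used and by 1 library.

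**Figure D3:**
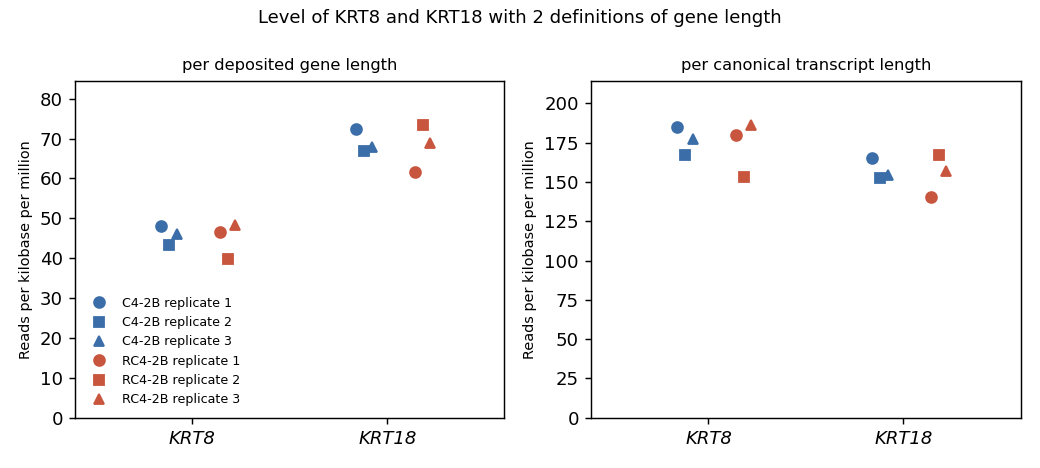
FPKM (vertical axes start at 0) of KRT8 and KRT18 in each library, with the deposited gene length on the left and the length of the canonical transcript on the right. On the left KRT8 stays below 50 and KRT18 above 60, whereas on the right KRT8 spans 153 to 186 and KRT18 140 to 167.

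Both genes have many processed copies in the genome whose rows can take up their reads. Of 50 rows named as KRT8 pseudogenes, 15 held a count, and together they made up 3.01% to 4.08% of the reads of KRT8 and its copies in a library. KRT8P12 on chromosome 3 held most of these, with 198 to 229 counts in C4-2B and 160 to 198 in RC4-2B, or -0.20 ± 0.17 (standard error) on the log2 scale, with an adjusted p of 0.48 in edgeR's test. The other KRT8 copies that reached 10 counts were KRT8P33, with 6 to 15 counts over the libraries, and KRT8P46, with 2 to 16. Of 67 KRT18 pseudogene rows, 15 held a count, with a share of 0.676% to 1.11%. Those that reached 10 counts were KRT18P59 (9 to 17 counts), KRT18P34 (2 to 12) and KRT18P55 (3 to 11). Summed with their copies, KRT8 had a log2 fold change of -0.055 and KRT18 of -0.045. The spans of KRT8 and KRT18 also share 1084 bases on opposite strands, 525 of them exonic in both genes. Whether the counting used strand is not given in the sources used here, so reads in that stretch cannot be assigned with certainty.

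KRT19 (ENSG00000171345), the smallest keratin, found in luminal and intermediate cells of the prostate, was the third luminal keratin with enough counts for the test. It lies on the minus strand of chromosome 17 from 41523617 to 41528308, 1087 bases from KRT15. C4-2B replicates 1 to 3 stood at 3.31, 3.85 and 4.37 FPKM for KRT19, and RC4-2B replicates 1 to 3 at 4.53, 6.78 and 4.80 FPKM. The groups did not overlap, and RC4-2B replicate 2 was the highest. Of all tested genes, 17.5% were likewise higher in RC4-2B without overlap in FPKM, and 17% in CPM. On the CPM scale KRT19 stood at 10.0 ± 1.34 in C4-2B and 13.7 ± 2.80 in RC4-2B (SD, n = 3). Its log2 fold change of 0.45 (standard error 0.19, 95% interval 0.011 to 0.90) had an unadjusted p of 0.046 and an adjusted p of 0.23 in edgeR's test, and did not pass the threshold. An unadjusted p under 0.05 with a higher level in RC4-2B was found for 12% of all genes tested. KRT19 made up 1.35% to 1.88% of the luminal keratin counts in C4-2B and 1.98% to 3.02% in RC4-2B. The 944 tested genes of chromosome 17 had a median log2 fold change of 0.15, against 0.0063 for all tested genes and 0.012 for the 772 of chromosome 12, which carries KRT8 and KRT18. The part of this shift in the KRT19 value was not tested. Without RC4-2B replicate 2 the log2 fold change of KRT19 was 0.27, and after correcting for GC content it was 0.89 (adjusted p = 0.10 from edgeR's test). With both, it was 0.39. Leaving out a library gave 0.27 to 0.55, the lowest without RC4-2B replicate 2.

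**Figure D4:**
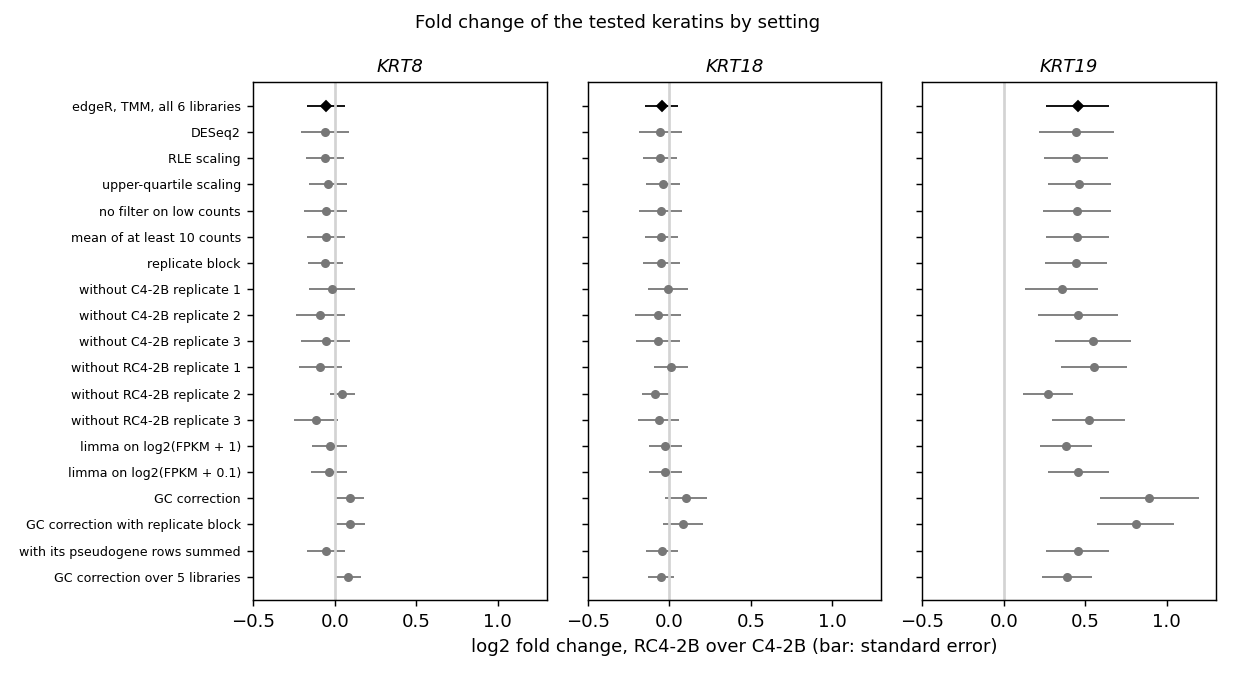
Fitted log2 fold change of KRT8, KRT18 and KRT19 (horizontal axes, RC4-2B over C4-2B, bars are standard errors) in the edgeR fit of all 6 libraries (top) and under 18 other settings. KRT8 and KRT18 stay within -0.12 and 0.10 around 0, and KRT19 stays above 0, from 0.27 without RC4-2B replicate 2 to 0.89 with the GC correction.

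Of the 5 luminal keratins, 3 could be tested, and 0 passed an adjusted p of 0.05 in edgeR's test. Over all genes tested, 1.98% passed that threshold. At an unadjusted p under 0.05 the number was 1, KRT19, against 21.4% of all genes tested. With DESeq2 it was 0 at an adjusted p, where 500 genes were higher and 402 lower of 15221. The summed level of the luminal keratins was 119 ± 4.93 FPKM in C4-2B and 118 ± 4.85 FPKM in RC4-2B (SD, n = 3), and KRT8 and KRT18 made up 97.0% to 98.6% of their counts. The groups overlapped.

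The remaining luminal genes were at the limit of detection. KRT7, a keratin of simple ductal epithelia, had 3 counts in C4-2B replicate 1 and 0 in the other 5 libraries. KRT20, a keratin of gut and urothelial surface cells, had 0 counts in the 3 C4-2B libraries, while RC4-2B replicates 1 to 3 held 2, 1 and 4. The RC4-2B mean of KRT20, 0.139 CPM, was under the level of 3 counts, and no fold change is given. In the edgeR fit without a filter on low counts, KRT20 had an unadjusted p of 0.029 and an adjusted p of 0.23. In that fit 4749 of 29109 genes had an unadjusted p under 0.05.

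On the basal side, too, the counts were too few for the test. KRT14, the type I partner of KRT5, had 4, 8 and 17 counts (C4-2B replicates 1 to 3) and 8, 5 and 6 counts (RC4-2B replicates 1 to 3). The groups overlapped, and C4-2B replicate 3 was the highest. Without that library the log2 difference of the summed basal FPKM turned from -0.44 to 0.10. KRT17, a keratin of basal and myoepithelial cells, had 1, 0 and 3 counts in C4-2B and 0 in each RC4-2B library. KRT15, another type I keratin of basal cells, had 1 count in RC4-2B replicate 3 and 0 elsewhere. KRT14 and KRT17 are close in sequence, so their few reads are uncertain between them. Luminal keratin counts were 531 to 2141 times basal counts in C4-2B and 1184 to 1970 times in RC4-2B.

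Among the other 46 protein-coding keratin genes of the tables, 30 had 0 counts in all libraries and 9 more did not exceed 3 counts in any. Only KRT10, KRT80 and KRT6C were tested, and none passed the threshold in that fit. KRT10, the type I keratin of the upper epidermis, was at 24.5 ± 3.93 FPKM in C4-2B and 18.4 ± 3.99 FPKM in RC4-2B (SD, n = 3), with overlapping groups and -0.44 on the log2 scale (adjusted p = 0.24 in edgeR's test). With the GC correction and the replicate block together, KRT10 stood at -0.41 with an adjusted p of 0.042 in edgeR's test. This was the only 1 of 16 alternatives in which KRT10 passed. In that setting 643 genes were higher and 562 lower of 14987. KRT10 was thus above KRT19 in both lines on the FPKM scale. KRT80 was at 0.677 ± 0.12 and 0.351 ± 0.20 FPKM, which gave -0.96 ± 0.40 (standard error) on the log2 scale and an adjusted p of 0.22 in edgeR's test. KRT6C had 10 to 13 counts in C4-2B and 4 to 12 in RC4-2B, and it shares nearly all of its sequence with KRT6A, which had 0 counts. By pattern over the 6 libraries, KRT8 was most like CCDC71L, SPATC1L and AGPAT1 (Pearson r of log2 CPM between 0.995 and 0.998), and KRT18 most like AL163540.1, AL031673.1 and AL121839.2 (r between 0.979 and 0.988). These were the highest correlations among the tested genes, over 6 libraries whose depth and base composition are shared by all genes, and are a description.

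Keratin filaments are anchored at desmosomes, where plakins, plakophilins and plakoglobin join them to the desmosomal cadherins. Of 21 genes of these classes and other desmosome or keratin-binding proteins (PERP, FAM83H and TCHP), 19 were tested, 1 rose and 0 fell at an adjusted p of 0.05, and the median log2 fold change was 0.063. The gene that rose was DSC3, a desmosomal cadherin of basal and stratified cells, for which the C4-2B libraries held 69, 76 and 65 counts and the RC4-2B libraries 181, 350 and 178. Over all genes, 1.08% rose. All RC4-2B libraries were above all C4-2B libraries, as for 17% of tested genes in CPM. DSC3 went from 4.04 ± 0.31 to 13.9 ± 5.25 CPM (SD, n = 3), or 1.78 ± 0.27 (standard error) on the log2 scale with an adjusted p of 0.019 in edgeR's test. It lies on chromosome 18, whose 230 tested genes had a median of -0.18. Leaving out C4-2B replicate 1, 2 or 3 gave an adjusted p of 0.14, 0.092 and 0.11, where 0.284%, 0.371% and 0.364% of all genes passed. For DSC3, limma gave an adjusted p of 0.098 and 0.087. DSC3 met limma's limit of 1 FPKM in 3 libraries through the RC4-2B libraries alone, which favours a higher level there. DSG2, the desmoglein of simple epithelia, was far more abundant, at 746 ± 80.8 and 779 ± 147 CPM, with a log2 fold change of 0.063. JUP, which encodes plakoglobin, was at 529 ± 1.64 and 597 ± 48.9 CPM (log2 fold change 0.18), and DSP, which encodes desmoplakin, the plakin that binds keratin, at 197 ± 23.8 and 254 ± 47.3 CPM (log2 fold change 0.37, adjusted p = 0.22). Without RC4-2B replicate 2, where 12.5% of all genes tested passed, 3 of these genes were higher (JUP, DST and DSC3) and 3 lower (PPL, TCHP and DSC2).

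Of 25 other genes of luminal and general epithelial identity, 24 were tested, 0 rose and 2 fell, with a median log2 fold change of -0.098. Over all genes, 0.903% fell. KLK3, which encodes prostate-specific antigen, and TMPRSS2, an androgen-responsive protease, were lower by -4.33 and -1.08 on the log2 scale (adjusted p = 0.000154 and 0.019 from edgeR's test). Leaving out C4-2B replicate 1, 2 or 3 gave TMPRSS2 an adjusted p of 0.12, 0.082 and 0.10, and leaving out RC4-2B replicate 3, where 0.503% of all genes passed, gave 0.054. Leaving out RC4-2B replicate 1, 3.07% of all genes passed. CDH1, the epithelial cadherin, had a log2 fold change of 0.56 (adjusted p = 0.077). Without RC4-2B replicate 2, where 12.5% of all genes tested passed, 3 of this list were higher and 6 lower.

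Of 23 other basal genes, 15 were tested, 1 rose and 0 fell (1.08% and 0.903% over all genes), with a median of 0.24. The gene that rose was CAV2, a caveolar coat protein, for which the C4-2B libraries held 5, 2 and 4 counts and the RC4-2B libraries 18, 28 and 19. CAV2 stood at 2.56 ± 0.44 (standard error) on the log2 scale, with an adjusted p of 0.028 in edgeR's test. It passed the filter on low counts through the RC4-2B libraries alone, so that a tested CAV2 had to be higher there. Leaving out C4-2B replicate 1, 2 or 3 gave 0.14, 0.16 and 0.15, leaving out RC4-2B replicate 3 gave 0.089, and the replicate block gave 0.074. CD44 and BNC1 had 0 counts in all 6 libraries. The list also holds genes that other epithelial cells use, such as ITGA6, and its summed level was 33.5 to 38.4 FPKM in C4-2B and 34.0 to 38.4 FPKM in RC4-2B.

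Of 16 other intermediate filament genes, 8 were tested, 0 rose and 1 fell (1.08% and 0.903% over all genes), with a median of -0.11. The gene that fell was NES, which encodes nestin, a filament protein of progenitor cells, from 14.9 ± 1.48 to 5.07 ± 1.38 CPM (SD, n = 3), or -1.55 ± 0.22 (standard error) on the log2 scale with an adjusted p of 0.015 in edgeR's test. Leaving out C4-2B replicate 1, 2 or 3 gave NES an adjusted p of 0.11, 0.057 and 0.083. Limma gave NES an adjusted p of 0.055 with a pseudocount of 0.1 and 0.038 with a pseudocount of 1. NES met limma's limit of 1 FPKM in 3 libraries through its C4-2B libraries, which favours a lower level in RC4-2B. VIM, which encodes vimentin, the filament of mesenchymal cells, stood at 0.64 ± 0.20 (standard error) on the log2 scale. Its adjusted p was 0.14 in edgeR's test.

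**Figure D5:**
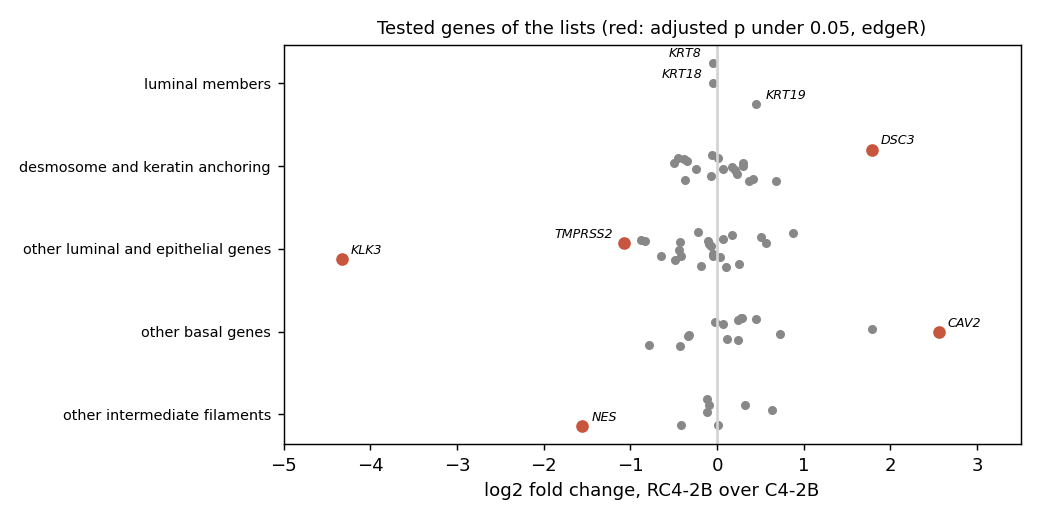
Log2 fold change (horizontal axis, RC4-2B over C4-2B) of the tested genes of 5 lists, 1 point per gene spread vertically for legibility, with red for an adjusted p under 0.05 in edgeR's test. KRT8 and KRT18 lie at 0 and KRT19 at 0.45, all grey, while DSC3 (1.78) and CAV2 (2.56) lie to the right and KLK3 (-4.33), NES (-1.55) and TMPRSS2 (-1.08) to the left in red.

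Markers of other cells that such a culture could hold were low in both lines. In bulk RNA, fewer cells of a type and less RNA per cell cannot be told apart. Of 10 leukocyte and endothelial genes, 8 stayed at or under 3 counts in every library, among them PTPRC and PECAM1. VWF of endothelial cells made up most of the summed level, with 125 to 143 counts in C4-2B and 62 to 81 in RC4-2B, or -0.84 on the log2 scale with an adjusted p of 0.065 in edgeR's test. The sum was 0.732 to 0.897 FPKM in C4-2B and 0.375 to 0.519 FPKM in RC4-2B. Of 9 stromal genes, 4 stayed at or under 3 counts, and COL1A2, DCN and LUM were at 0, with a sum of 2.84 to 3.49 and 3.07 to 4.17 FPKM. Most of that sum was the collagen gene COL1A1, with 355 to 443 counts in C4-2B and 390 to 585 in RC4-2B (log2 fold change 0.30, adjusted p = 0.36). COL3A1, another collagen gene, stood at 1.69 and ACTA2, the smooth muscle actin, at -1.57 on the log2 scale (adjusted p = 0.051 and 0.073). The 6 urothelial genes, which bear on KRT7 and KRT20, summed to 3.90 to 5.69 and 2.87 to 6.44 FPKM, and the 7 neuroendocrine genes to 1.78 to 2.06 and 1.52 to 2.13 FPKM. None of the tested genes of these 4 lists passed the threshold, with 1, 4, 3 and 2 of them tested. Without RC4-2B replicate 2, where 12.5% of all genes tested passed, VWF and ACTA2 were lower and COL3A1 and COL1A1 higher past the threshold. COL3A1 held 7, 13 and 10 counts in the C4-2B libraries and 23, 34 and 38 in the RC4-2B libraries. Its C4-2B libraries alone would not have met the filter on low counts, which favours a higher level in RC4-2B. The part of these 4 genes in the keratin values was not tested.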

How the data were processed

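RNAseq of 3 C4-2B and 3 RC4-2B libraries was analysed. Per the paper and the labels, the authors used STAR and GRCh38 for the mapping. They deposited counts, whole reads per gene without normalization, and FPKM values, which are those counts over gene length and a library total. Which program counted the reads, whether it used strand, what it did with multiply mapped reads, and the annotation release are not given in the sources used here. Libraries hold 15707134 to 18052517 counts.

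Counts were fitted in R 4.3.3 with edgeR 4.0.16 (TMM, filterByExpr with a minimum of 10 counts, 15054 genes, glmQLFit and glmQLFTest cell line as sole term, Benjamini-Hochberg adjustment over all tested genes, threshold 0.05). A standard error is the size of the log2 fold change over the root of F, and 95% intervals use the fit's total degrees of freedom. The fit was tested on simulated data. Canonical transcript lengths and GC content came from GENCODE release 44. Genes named are the 10 members, keratins tested, pseudogene rows of at least 10 counts in a library, genes of the lists past the threshold, and the 3 genes most like KRT8 and KRT18. DSG2, JUP, DSP, PPL, TCHP, DSC2, DST, CDH1, VIM, VWF, COL1A1, COL3A1, ACTA2 and the genes named at 0 counts or at the floor were chosen after their values were seen. The members and the lists were chosen with earlier results of these data known.

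Alternatives were DESeq2 1.42.0, scaling by RLE or by the upper quartile, all genes with a count, genes averaging 10 counts or more, a block for the replicate number, leaving out each library, limma 3.58.1 on log2 FPKM with a pseudocount of 1 or of 0.1 for genes of at least 1 FPKM in 3 libraries, a GC correction (lowess span 0.2, as an edgeR offset), alone or with the block, and pseudogene rows summed with their gene. The canonical length, the GC correction over 5 libraries without RC4-2B replicate 2 and the list counts without that library were added after the data were seen.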

Additional observations from a re-analysis of the deposited data

How the results depend on the processing

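None of the settings brought a luminal keratin past the threshold. Basal members could hardly be called: 0 of 5 were tested in the fit of all 6 libraries, and KRT14, KRT15 and KRT17 entered without a filter, where 0 passed. KRT19 was higher in RC4-2B in all 18 alternatives, from 0.27 to 0.89 on the log2 scale, with adjusted p-values of 0.071 to 0.55. KRT8 ranged from -0.12 to 0.091 and KRT18 from -0.086 to 0.10. With the GC correction KRT8 turned to 0.091 and KRT18 to 0.10, with the GC correction and the replicate block to 0.091 and 0.086, and with the GC correction over 5 libraries KRT8 turned to 0.083. With a library left out, KRT8 ran from -0.12 to 0.046, KRT18 from -0.086 to 0.0095, KRT19 from 0.27 to 0.55, the log2 difference of the luminal sum from -0.033 to 0.029 and that of the basal sum from -0.88 to 0.10. The log2 ratio of KRT8 to KRT18 per length turned from -0.60 to 0.16 with canonical lengths.

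Counts over all genes moved most, from 162 higher and 136 lower to 500 and 402 with DESeq2, 604 and 646 without a filter, 55 and 74 with the replicate block, 46 and 58 or 39 and 47 with limma on FPKM (pseudocount 1 or 0.1), 658 and 490 with the GC correction, and 643 and 562 with it and the block. Without a library they ran from 13 to 1000 higher and from 31 to 925 lower, the highest without RC4-2B replicate 2. Genes of the lists, 2 higher and 3 lower, became 5 and 7 with DESeq2, 5 and 8 without a filter, 8 and 10 with the GC correction and 8 and 12 with it and the block. The higher ones became 1 with the block and 0 in both limma fits. Without a library they ran from 0 to 9 higher and from 1 to 13 lower. The cause was not tested. Same-numbered libraries correlated in their deviations by 0.32, 0.18 and -0.069, and C4-2B replicate 3 correlated best with RC4-2B replicate 2, so the numbers were not taken as pairs. With the replicate block KRT8, KRT18 and KRT19 stood at -0.058, -0.049 and 0.44. KRT5, TP63, KRT7, KRT15, KRT17 and KRT20 held 0 to 4 counts in each library, and changes within that range are not detectable at this depth.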

Other observations

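Several keratins of skin and hair had a few reads. KRT2, a keratin of the upper epidermis, had 4, 7 and 7 counts (C4-2B replicates 1 to 3) and 3, 2 and 3 counts (RC4-2B replicates 1 to 3), without overlap in CPM, as for 17.1% of tested genes that were lower in RC4-2B. KRT4, a keratin of the suprabasal layers of stratified mucosa, had 0 counts in each C4-2B library and 4, 0 and 2 in RC4-2B, whereas its usual partner KRT13 had 0 in all 6. KRT75 of the hair follicle had 1, 0 and 4 counts in C4-2B and 0 in each RC4-2B library. These genes were picked after their values were seen, were too low for the test, and are given as values.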
